A study of Mus musculus with 24 samples.

Results

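Ribosomal protein paralogs are extra copies of genes for the proteins of the ribosome, kept beside an older, more widely used parent gene. Rpl10l, Rpl39l, Rpl3l, Rpl22l1, Rps4l, Rps27l and Rpl7l1 were chosen by symbol and followed in mouse tissues with and without Thumpd1, and all 7 were found among the 55450 genes of the table. Each was set against its parent, in the same order Rpl10, Rpl39, Rpl3, Rpl22, Rps4x, Rps27 and Rpl7. Thumpd1 encodes an adaptor that directs the acetyltransferase Nat10 to tRNA, and the study asked how its loss alters gene expression in the animal.

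Total RNA depleted of ribosomal RNA was sequenced from liver, cerebellum and testes of wild-type (WT) and Thumpd1 knockout (KO) mice, with 4 libraries for each tissue and genotype and 24 in all. The KO line was made in C57BL/6N eggs with a pair of Cas9 guides against exons 1 and 4, was kept on a C57/BL6 background and carries a constitutive frameshift deletion. The mice were 6 to 12 weeks old and littermates matched for age served as controls. In CPM (counts per 1000000 assigned counts), the summed level of 4 Y-linked genes was above 1 in all 24 libraries. Xist, the RNA that coats an inactive X chromosome, was above 1 CPM in 1 WT liver library (2.59 CPM) and in all 8 testes libraries (2.11 to 4.53 CPM), and at no more than 0.283 CPM in the others. Each library held between 16353797 and 37889615 assigned counts. Thumpd1 stood at 9.19 to 26.3 CPM in the WT libraries, at no more than 0.113 CPM in KO liver and cerebellum and at 0.768 to 1.14 CPM in KO testes.

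A ribosome carries a single copy of most of its proteins, so a paralog can take the place that its parent would otherwise fill. Genes on the X chromosome are silenced during male meiosis, and several paralogs of X-linked ribosomal protein genes are autosomal copies used by male germ cells, with Rpl10l and Rpl39l as the known examples in the mouse. Rpl3l is known from heart and skeletal muscle, Rpl22l1 can compensate for its parent Rpl22, and Rps27l is a known target of p53.

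The paralogs ranged from near copies of the parent protein to distant relatives. The Rpl10l protein was identical to Rpl10 at 98.6% of aligned residues (211 of 214), Rps27l to Rps27 at 96.4% (81 of 84) and Rpl39l to Rpl39 at 94.1% (48 of 51). Rpl3l shared 76.0% with Rpl3, Rpl22l1 70.3% with Rpl22 and Rpl7l1 40.7% with Rpl7. The coding bases had diverged further than the residues in the closest pairs, and this decides whether reads can be assigned. Coding identity was 84.7% for Rpl10l, 85.0% for Rpl39l and 76.2% for Rps27l. No stretch of 50 bases was common to the transcripts of a paralog and of its parent in any of the 7 pairs.

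The coding sequences of 3 pairs are shown because the differing bases are what tells reads of a paralog from those of its parent. All run 5′ to 3′ from the start codon without the stop codon, as annotated in GENCODE M21 on GRCm38 (mm10), and capitals mark the bases at which a paralog and its parent differ at the same position. Rpl39l and Rpl39 are whole and differ at 23 of 153 bases, Rps27l and Rps27 are whole and differ at 60 of 252, and Rpl10l and Rpl10 are given over their first 210 bases, of which 37 differ.
Rpl39l: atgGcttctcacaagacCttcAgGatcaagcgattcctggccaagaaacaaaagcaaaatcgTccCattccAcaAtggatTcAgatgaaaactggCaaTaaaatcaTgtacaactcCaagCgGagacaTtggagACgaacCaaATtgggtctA
Rpl39: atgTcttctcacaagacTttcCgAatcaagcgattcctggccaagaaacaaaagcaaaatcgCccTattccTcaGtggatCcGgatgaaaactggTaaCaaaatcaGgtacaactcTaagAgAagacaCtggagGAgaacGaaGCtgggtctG
Rps27l: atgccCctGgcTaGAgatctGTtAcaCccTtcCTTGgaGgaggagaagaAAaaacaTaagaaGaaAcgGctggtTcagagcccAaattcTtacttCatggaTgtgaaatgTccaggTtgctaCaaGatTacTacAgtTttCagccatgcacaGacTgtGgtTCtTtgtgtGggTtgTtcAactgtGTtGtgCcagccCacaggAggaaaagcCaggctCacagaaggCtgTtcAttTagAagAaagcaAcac
Rps27: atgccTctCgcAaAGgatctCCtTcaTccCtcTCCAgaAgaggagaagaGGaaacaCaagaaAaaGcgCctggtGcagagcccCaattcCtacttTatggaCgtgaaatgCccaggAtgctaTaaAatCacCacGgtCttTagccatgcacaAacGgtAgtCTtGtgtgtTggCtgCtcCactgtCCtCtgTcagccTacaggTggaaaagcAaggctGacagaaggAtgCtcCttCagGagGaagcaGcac
Rpl10l: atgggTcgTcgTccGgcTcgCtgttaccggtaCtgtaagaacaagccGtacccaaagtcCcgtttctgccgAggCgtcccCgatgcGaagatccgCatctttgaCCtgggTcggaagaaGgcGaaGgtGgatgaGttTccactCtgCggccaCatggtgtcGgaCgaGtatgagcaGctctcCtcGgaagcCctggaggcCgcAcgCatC
Rpl10: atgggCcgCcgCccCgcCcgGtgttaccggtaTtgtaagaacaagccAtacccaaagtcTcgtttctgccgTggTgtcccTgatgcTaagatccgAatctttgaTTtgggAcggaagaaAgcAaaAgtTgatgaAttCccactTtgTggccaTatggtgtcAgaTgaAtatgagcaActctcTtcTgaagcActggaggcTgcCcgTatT

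The differences are spread along the Rps27l and Rpl10l sequences. Rpl39l and Rpl39 share a longer run of matching bases in their first part, and most of their differences lie after it. Reads could still be shared with other genes. Of the 50-base windows of each gene, 98.6% for Rps27, 85.6% for Rpl3, 85.4% for Rpl10, 72.2% for Rps4x and 53.3% for Rpl7 also occurred in some other annotated gene, against 16.2% for Rpl39 and 5.2% for Rpl22. Among the paralogs the share was 57.3% for Rpl22l1, 22.4% for Rps27l, 14.9% for Rps4l, 9.0% for Rpl7l1, 7.6% for Rpl10l and 0 for Rpl39l and Rpl3l. The counts of Rpl10l, Rpl39l, Rpl3l, Rps4l and Rpl7l1 were whole numbers in all 24 libraries. Those of Rpl22l1 and of the parent Rpl7 were whole in 1 library each, and those of the parents Rpl10, Rpl3, Rps4x and Rps27 in none. Levels of these parents and of Rpl22l1 therefore rest on the share of ambiguous reads that the counting program assigned to them. Of the 15 annotated pseudogene rows named after these genes, 8 exceeded 3 counts in at least 1 library, with the highest level at 21.5 CPM for Rpl10-ps3.

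The genes lie apart in the genome. Rpl10l is a single-exon gene on chromosome 12 (66283379 to 66284401, minus strand), Rpl39l lies on chromosome 16 (10170226 to 10174911, plus strand) and Rpl3l on chromosome 17 (24727820 to 24736143, plus strand). Rpl22l1 lies on chromosome 3 (28805436 to 28807424, plus strand), Rps27l on chromosome 9 (66946086 to 66949516, plus strand) and Rpl7l1 on chromosome 17 (46773907 to 46782672, minus strand). The parents Rpl10, Rpl39 and Rps4x are on the X chromosome. Rps4l, on chromosome 6 (148354656 to 148355598, plus strand), is annotated as a transcribed processed pseudogene of 1 exon. Its transcript nevertheless held an open reading frame of 262 residues that was 93.2% identical to Rps4x. Rps4l lies opposite the gene Tmtc1 without overlapping its exons, and 159 bases of Rpl22l1 exons lie opposite Gm33051, which had no counts in any library.

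Rpl10l and Rpl39l were found in testes and scarcely anywhere else. Rpl10l, a germ-cell copy of the large-subunit protein Rpl10, stood at 105, 103, 109 and 108 CPM in the 4 WT testes libraries and had 0 counts in all 16 liver and cerebellum libraries. Against a floor of 3 counts per library, its mean of 106 ± 2.82 CPM (SD, n = 4) in WT testes was at least 954-fold that of WT liver and at least 649-fold that of WT cerebellum. With counts scaled by TMM (trimmed mean of M values), a scaling added after seeing the data, these bounds were 489-fold and 786-fold. Rpl39l, the germ-cell copy of the large-subunit gene Rpl39, stood at 124, 122, 114 and 122 CPM in WT testes. It had 0 counts in the 8 liver libraries and at most 1 in each of the 8 cerebellum libraries. Its WT testes mean of 120 ± 4.36 CPM (SD, n = 4) was at least 1083-fold the WT liver floor and at least 737-fold the WT cerebellum floor in CPM, and at least 555-fold and 892-fold with TMM scaling. In bulk tissue, fewer cells of a type and less RNA per cell cannot be told apart.

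**Figure D1:**
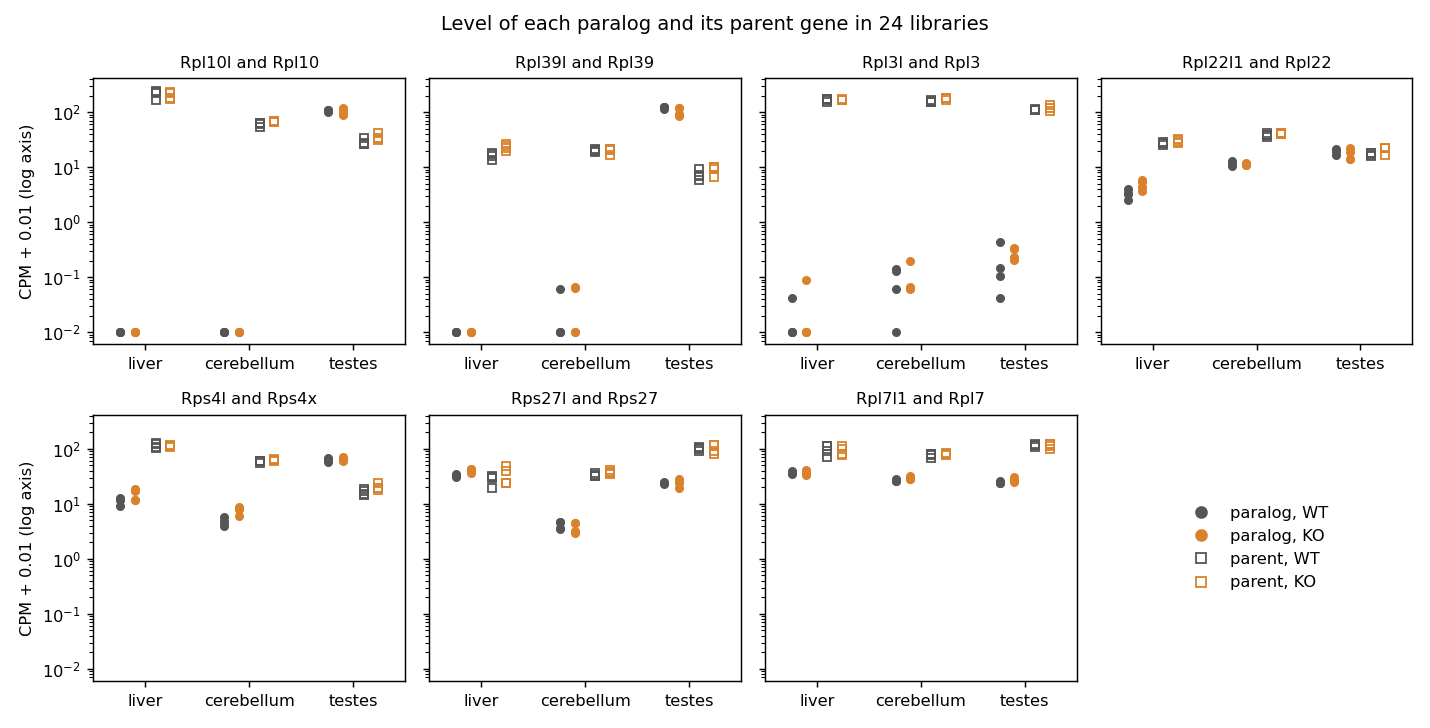
CPM plus 0.01 on a log axis for each paralog (filled circles) and its parent (open squares) in the 4 WT and 4 KO libraries of liver, cerebellum and testes, 1 point per library. Rpl10l and Rpl39l rise from the bottom of the axis to about the level of 100 CPM in testes, where their X-linked parents are lowest, while Rpl3l stays under 0.435 CPM in every library.

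Rps4l, the copy of the X-linked small-subunit gene Rps4x, was detected in every tissue. It stood at 57.3, 68.7, 63.7 and 62.8 CPM in WT testes, at 11.7, 12.0, 12.8 and 9.26 CPM in WT liver and at 4.12, 5.66, 4.90 and 3.88 CPM in WT cerebellum. The 3 tissues did not overlap, with testes above liver and liver above cerebellum. Rps4x ran the other way between testes and the other tissues, at 16.2 ± 2.01 CPM in WT testes, 114 ± 10.9 CPM in WT liver and 58.9 ± 2.57 CPM in WT cerebellum (SD, n = 4 each).

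Rpl22l1, an RNA-binding large-subunit paralog, was also highest in testes. It stood at 21.3, 20.3, 16.4 and 20.0 CPM in WT testes, at 12.9, 10.7, 12.0 and 12.5 CPM in WT cerebellum and at 4.02, 3.45, 3.28 and 2.56 CPM in WT liver. No library of one tissue reached the range of the next. Rps27l, a small-subunit paralog, had its highest level in liver, at 34.7, 32.6, 32.7 and 30.3 CPM, followed by WT testes at 24.4, 23.5, 22.6 and 24.5 CPM. In WT cerebellum it stood at only 4.72, 4.69, 3.48 and 3.67 CPM, below every library of the other tissues.

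Rpl7l1, a distant relative of Rpl7, was highest in liver. It ranged from 34.5 to 40.1 CPM in WT liver, from 26.2 to 28.0 CPM in WT cerebellum and from 23.8 to 26.1 CPM in WT testes, so that the last 2 ranges nearly met. Rpl3l, the muscle copy of Rpl3, was at or near the detection limit throughout. It had 0 to 3 counts in each liver and cerebellum library, 3, 14, 4 and 1 counts in WT testes and 7, 9, 7 and 9 counts in KO testes. Of 9 striated muscle marker genes, 9 did not exceed 3 counts in any WT liver library, 5 in WT cerebellum and 1 in WT testes. The name tissue-specific thus fitted only Rpl10l and Rpl39l in these samples, since Rpl22l1, Rps4l, Rps27l and Rpl7l1 were detected in all 3 tissues.

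Tissue differences were tested with limma-voom after TMM scaling, which sets libraries on the assumption that most genes hold their level, with Benjamini-Hochberg adjusted p under 0.05 as the threshold. Nearly all genes differ between such tissues. Among genes with more than 3 counts in at least 1 library compared, 56.6% were higher and 34.9% lower in WT testes than in WT liver, 51.1% higher and 39.9% lower in WT testes than in WT cerebellum, and 49.6% higher and 39.9% lower in WT cerebellum than in WT liver. A call on its own is therefore close to the background, and the size is what matters. The median over all genes was itself 0.83 (log2) between testes and liver with TMM scaling and -0.26 with quantile scaling, so changes between tissues depend on the scaling and are given relative to that median as well.

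Of the 4 paralogs detected in every tissue, Rpl22l1 and Rps4l passed the threshold as higher in testes than in liver, and Rps27l and Rpl7l1 as lower. Rpl10l and Rpl39l passed the filter on low counts only through testes and are left out of these counts. Rps4l was higher by 1.51 ± 0.10 (log2, SE, limma adjusted p = 1.57e-08) and Rpl22l1 by 1.60 ± 0.14 (limma adjusted p = 2.2e-07). That put them 0.68 and 0.77 above the median gene with TMM scaling, and 1.63 and 1.29 above it with quantile scaling. Rps27l was lower, with a log2 change of -1.40 ± 0.05 (limma adjusted p = 5.42e-11). Rpl7l1 changed by -1.52 ± 0.05 (limma adjusted p = 7.14e-12), beside a median of -0.74 over the core ribosomal protein genes. Relative to the median gene, Rps27l and Rpl7l1 stood at -2.23 and -2.35 with TMM scaling and at -1.19 and -1.29 with quantile scaling. In CPM the log2 changes were 2.46 for Rps4l, 2.55 for Rpl22l1, -0.46 for Rps27l and -0.58 for Rpl7l1, so the directions held and the sizes did not.

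Between testes and cerebellum Rps4l, Rps27l, Rpl22l1 and Rpl7l1 passed as higher in testes. The change was 4.02 ± 0.16 (log2, SE) for Rps4l, 2.76 ± 0.11 for Rps27l and 0.96 ± 0.10 for Rpl22l1. Relative to the median gene these were 3.65, 2.39 and 0.59 with TMM scaling and 4.33, 3.06 and 1.12 with quantile scaling. Rpl7l1 changed by only 0.13 ± 0.05 (limma adjusted p = 0.0393), less than the median gene at 0.37, and the sign turned to -0.09 with quantile scaling and to -0.13 in CPM, so no order of these tissues is drawn for it. Between cerebellum and liver, Rps27l was lower in cerebellum by a log2 change of -4.16 ± 0.11, Rps4l by -2.51 ± 0.18 and Rpl7l1 by -1.65 ± 0.05 (3 of 4 tested). The median gene stood at -0.02 here, and with quantile scaling, where it stood at -0.21, the changes relative to it were -4.04, -2.49 and -1.26. In CPM they were smaller, with log2 changes of -2.97 for Rps27l, -1.30 for Rps4l and -0.45 for Rpl7l1, and that of Rpl22l1 was larger at 1.85. Rpl22l1 passed as higher in cerebellum at 0.65 ± 0.15 (limma adjusted p = 0.00161), but at 0.17 with quantile scaling it did not (limma adjusted p = 0.224), nor did it among the KO libraries at 0.10 (limma adjusted p = 0.699).

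The ratio of a paralog to its parent within a library is free of the scaling between tissues. Expressed per kilobase of the main transcript, Rpl39l made up 92.6% ± 1.17 of the level of the pair Rpl39l and Rpl39 in WT testes (SD, n = 4). Rpl10l made up 75.7% ± 2.87 and Rps4l 80.1% ± 2.05 of their pairs there. In all 3 pairs whose parent is X-linked, the paralog was thus the more abundant transcript in testes, and in liver and cerebellum the parent was. Rps4l made up 9.43% ± 1.08 of its pair in WT liver and 7.53% ± 1.32 in WT cerebellum, and Rpl10l and Rpl39l no more than 0.201% of theirs in any liver or cerebellum library.

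**Figure D2:**
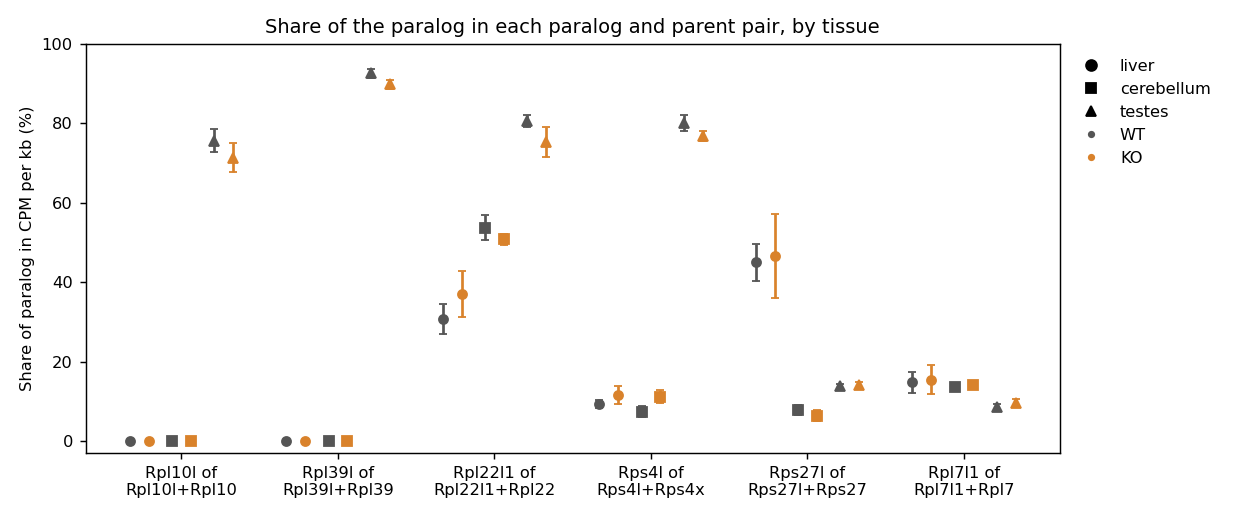
Share of the paralog, in percent of paralog plus parent CPM per kilobase of transcript, for 6 pairs in liver (circles), cerebellum (squares) and testes (triangles) of WT (grey) and KO (orange) mice; points are means of 4 libraries and bars 1 SD. The testes values of Rpl10l, Rpl39l and Rps4l sit above 70% while their liver and cerebellum values sit under 15%. Those of Rpl22l1, whose parent is autosomal, sit above 70% in testes too, and at 30.8% to 53.7% in liver and cerebellum. Rps27l and Rpl7l1 do not follow that pattern.

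The pairs with autosomal parents differed from each other. Rpl22l1 made up 80.7% ± 1.49 of its pair in WT testes, 53.7% ± 3.11 in WT cerebellum and 30.8% ± 3.74 in WT liver, but these values depend on the length taken for Rpl22. With the shortest annotated coding transcripts they were 50.5%, 22.1% and 9.79%, in the same order of tissues. Rps27l was close to equal with Rps27 in WT liver, at 45.1% ± 4.61, and made up 13.9% ± 0.45 in WT testes and 7.91% ± 1.37 in WT cerebellum. Rpl7l1 stayed the smaller partner everywhere, between 8.66% in WT testes and 14.9% in WT liver, or between 15.9% and 25.7% with the shortest coding transcripts. The SD of Rps27l in KO liver was larger, at 10.6 percentage points around 46.6% and Rps27 stood at 23.6, 23.8, 40.2 and 49.4 CPM in those 4 libraries.

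Paralog and parent were also summed. The pair Rpl39l and Rpl39 stood at 162 ± 7.53 CPM per kilobase in WT testes, against 26.4 ± 3.32 in WT liver and 32.6 ± 1.89 in WT cerebellum (SD, n = 4 each). For Rpl10l and Rpl10 the sum was 137 ± 2.46 in WT testes, between 254 ± 43.6 in WT liver and 70.6 ± 5.08 in WT cerebellum. For Rps4l and Rps4x it was 83.6 ± 5.93 in WT testes, 129 ± 12.1 in WT liver and 65.4 ± 2.53 in WT cerebellum. With the paralogs counted in, the testes levels of the Rpl10 and Rps4 pairs lay inside the span of the other 2 tissues, and that of the Rpl39 pair far above it.

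The parents were compared with the other core ribosomal protein genes. With TMM scaling, 64 of 79 such genes passed as lower and 9 as higher in WT testes than in WT liver. Of all genes compared, 34.9% were lower and 56.6% higher. The core median was -0.74 (log2) against 0.83 for all genes tested. Directions near this median depend on the scaling, as Rpl7 stood at -0.66 with TMM scaling and at 0.27 in CPM. In CPM the X-linked parents Rpl10, Rps4x and Rpl39 stood at -2.93, -2.81 and -1.13. The counts were not repeated in CPM. The 4 X-linked members, Rpl10, Rps4x, Rpl36a and Rpl39, held ranks 1, 2, 4 and 5 from the lowest, with changes of -3.87, -3.76, -2.72 and -2.09. Rps2, on chromosome 17, held rank 3. The median was -0.72 over the 75 autosomal genes and -3.24 over the 4 X-linked ones. Rps27 held rank 79, the highest, at 0.93 ± 0.11, so the parent of Rps27l, nearly all of whose windows recur in other genes, was the core gene with the highest testes to liver ratio. Between testes and cerebellum, 69 of the 79 core genes passed as higher and 7 as lower in testes, beside 51.1% and 39.9% of all genes compared. The 4 X-linked genes were among the lower ones, at a median of -1.21.

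**Figure D3:**
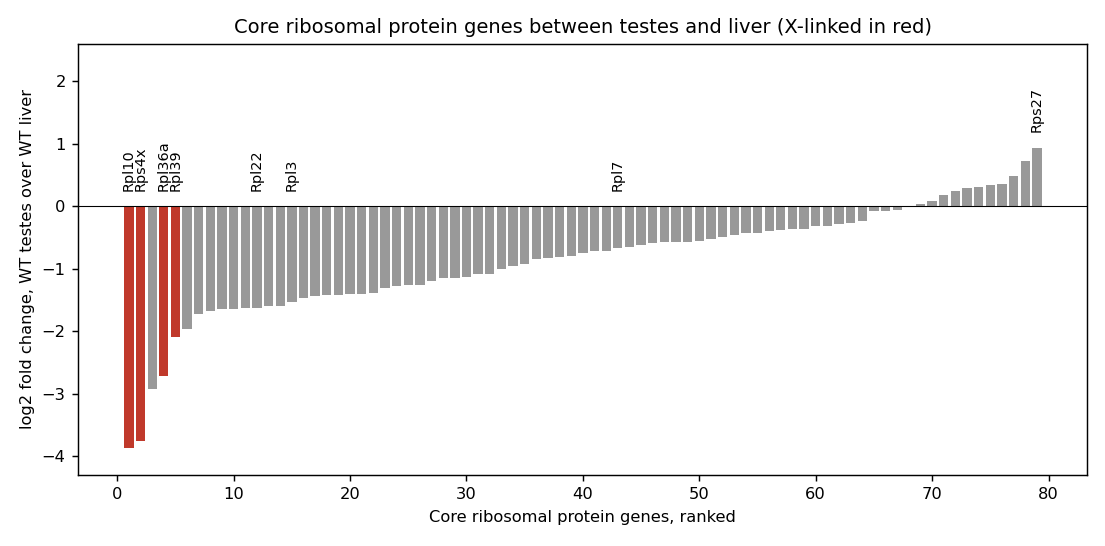
Log2 fold change of WT testes over WT liver, with TMM scaling, for 79 core ribosomal protein genes ranked from the lowest, 1 bar per gene. The 4 X-linked genes are in red and the 7 parents and Rpl36a are named. The X-linked genes take 4 of the 5 lowest ranks and Rps27 the highest.

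The genes whose pattern over the 24 libraries was most like that of each paralog were found by Pearson's r of log2(CPM + 1) among 16390 other genes. The 24 libraries are of 3 tissues, so r mainly follows the order of the tissues and is given as a description. For Rpl10l the 3 nearest genes were Smco2, Spesp1 and Spata16 (r = 1.0 each after rounding), and for Rpl39l Prss40, Sun5 and Nipsnap3a (r = 0.9999 each). These are not special to the pair, since 3008 genes reached an r of 0.95 with Rpl10l and 3005 with Rpl39l. Fewer genes tracked the others, 801 for Rpl22l1, 421 for Rps4l, 192 for Rps27l and 0 for Rpl7l1. The nearest genes were Isca1, Pdcd10 and Trnt1 for Rpl22l1 (r = 0.981 each), Fars2, Fkbp5 and Eif3g for Rps4l (r from 0.986 to 0.988), Csrp2, Acsl1 and Agtr1a for Rps27l (r from 0.990 to 0.991) and Dlst, Atg101 and Trip6 for Rpl7l1 (r from 0.934 to 0.941). No parent tracked its paralog. The r was -0.923 for Rpl39, -0.773 for Rpl10, -0.767 for Rps4x, -0.337 for Rpl22, -0.223 for Rpl7 and 0.204 for Rps27.

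The effect of Thumpd1 loss was tested within each tissue with limma-voom on quantile-normalised counts of genes with at least 1 CPM in at least 4 of the 8 libraries. In liver 2.79% of the 12816 genes tested were called higher and 3.12% lower in KO, in cerebellum 3.93% and 2.51% of 16225, and in testes 9.74% and 10.7% of 19329. Of the paralogs, 1 of 4 tested was called in liver, 1 of 4 in cerebellum and 0 of 6 in testes. The called members were Rps27l in liver and Rps4l in cerebellum, both higher in KO. With so few members these counts cannot be told from the background. Rpl3l passed the filter in no tissue, and Rpl10l and Rpl39l only in testes.

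**Figure D4:**
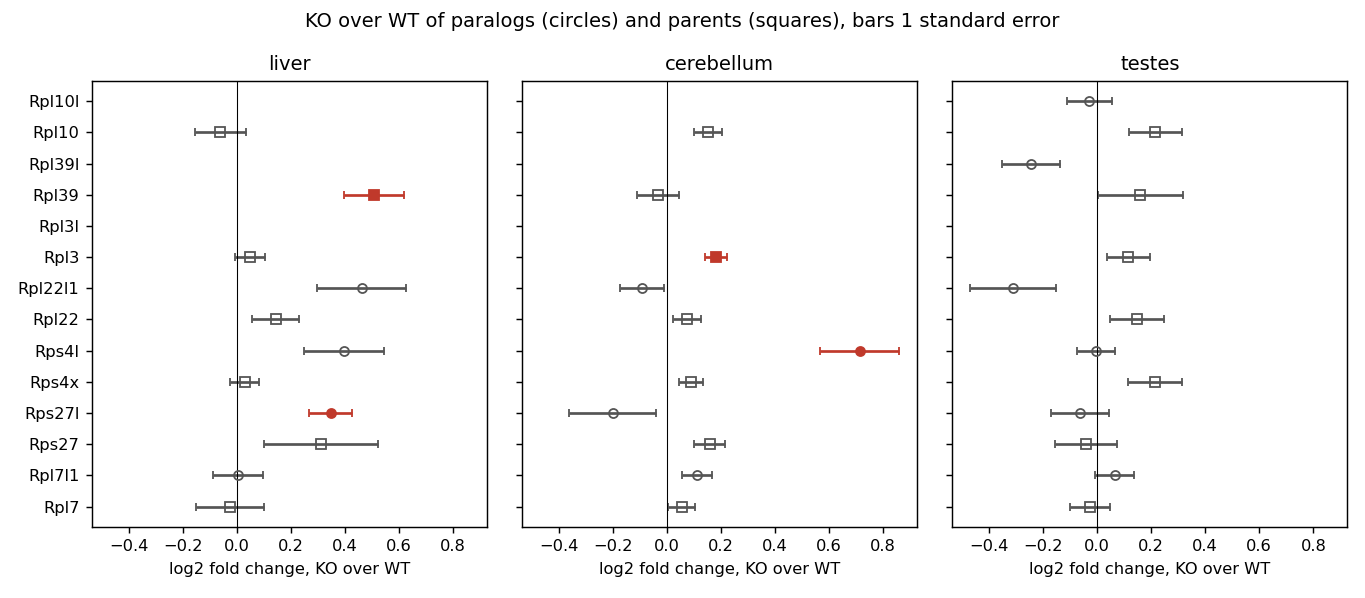
Log2 fold change of KO over WT in liver, cerebellum and testes for the paralogs (circles) and parents (squares), with bars of 1 standard error; filled red symbols passed an adjusted p of 0.05 in limma-voom. Rps27l and Rpl39 are red in liver, Rps4l and Rpl3 in cerebellum, and none in testes.

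Rps27l stood at 43.7, 42.9, 36.3 and 41.1 CPM in KO liver, above all 4 WT libraries, which reached at most 34.7 CPM. It rose by 0.35 ± 0.08 (log2, SE, limma adjusted p = 0.0304). The call was lost on leaving out any one of 6 libraries, WT replicates 1, 2 and 3 and KO replicates 5, 6 and 8, where the limma adjusted p was 0.0650 to 0.0969 at changes between 0.30 and 0.36. It was also lost without a filter on low counts (limma adjusted p = 0.0700) and in one fit over all 24 libraries (limma adjusted p = 0.0530). Among 20 other p53 target genes, 18 were tested in liver, of which 1 passed as higher and 2 as lower, beside 2.79% and 3.12% of all genes. Their median was -0.05 against -0.00308 for all genes. The parent Rps27 did not pass, at 0.31 ± 0.21 (limma adjusted p = 0.415).

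Rps4l stood at 8.71, 5.99, 8.02 and 8.21 CPM in KO cerebellum, above all 4 WT libraries, of which the highest had 5.66 CPM. It rose by 0.71 ± 0.15 (log2, SE, limma adjusted p = 0.0149). These levels rest on 76 to 157 counts per library. The call was lost without WT replicate 1 (0.65, limma adjusted p = 0.0563) and in one fit over all 24 libraries (0.71, limma adjusted p = 0.251). Tmtc1 on the opposite strand changed by 0.11 ± 0.05 (limma adjusted p = 0.219), and whether the counting used the strand of the reads is not given in the sources used here. The summed level of 9 midbrain marker genes, a list chosen after seeing these data, differed in the same contrast. It ranged from 5.94 to 8.57 CPM in WT cerebellum and from 10.6 to 12.8 CPM in KO. Both of the 2 that could be tested were called higher, beside 3.93% of all genes. Because of how the list was chosen, its rise is no independent result. The same sum averaged 85.6 CPM in WT liver and 11.1 CPM in WT testes, so it is not particular to midbrain. In KO cerebellum 5 of 5 granule cell markers were tested and 3 of them were lower, beside 2.51% of all genes. They summed to 3118 to 3359 CPM against 3518 to 3548 CPM in WT. Of 4 Purkinje cell genes 1 was higher and 0 lower, and of 4 choroid plexus genes 0 were called. The choroid plexus sum ran from 9.09 to 103 CPM among the WT libraries and from 11.1 to 38.5 CPM in KO. Of the 9 midbrain genes, 4 did not exceed 3 counts in any KO library. The part of these marker genes in the result was not tested.

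The other paralogs in these tissues did not pass. In KO liver Rps4l stood at 11.6, 11.5, 18.4 and 17.4 CPM, with KO replicates 7 and 8 above and replicates 5 and 6 within the WT range, and changed by 0.40 ± 0.15 (limma adjusted p = 0.136). Rpl22l1 stood at 3.71, 5.95, 4.37 and 5.33 CPM in KO liver, overlapping WT, and changed by 0.46 ± 0.16 (limma adjusted p = 0.123). Rpl22l1 passed with DESeq2 (0.55, adjusted p = 0.0334) and Rps4l with sample weights (0.48, limma adjusted p = 0.0252). Rpl7l1 differed by 0.01 ± 0.09 in liver and 0.11 ± 0.06 in cerebellum, and Rps27l and Rpl22l1 changed by -0.20 ± 0.16 and -0.09 ± 0.08 in cerebellum.

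Among the parents, Rpl39 rose in KO liver by 0.51 ± 0.11 (limma adjusted p = 0.0243), from 13.4 to 18.0 CPM in the WT libraries to 19.6 to 26.2 CPM in KO. Rpl3 rose in KO cerebellum by 0.18 ± 0.04 (limma adjusted p = 0.0245). Of the 79 core ribosomal protein genes, 8 were called higher and 0 lower in liver, beside 2.79% and 3.12% of all genes, with a median of 0.12 against -0.00308 for all genes. In cerebellum 25 were higher and 0 lower, beside 3.93% and 2.51%, with a median of 0.15 against -0.00586. Over all genes the calls in cerebellum dropped from 1045 to 195 in one fit over 24 libraries. In testes 1 was higher and 3 lower, beside 9.74% and 10.7%. The list itself was not tested.

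In KO testes 0 of 6 paralogs passed the limma threshold, 1 (Rpl39l) had an unadjusted limma p under 0.05, and edgeR and DESeq2 called 0. Rpl39l stood at 120, 119, 91.0 and 84.0 CPM, of which KO replicates 5 and 6 lay within the WT range of 114 to 124 CPM and KO replicates 7 and 8 below it, and changed by -0.25 ± 0.11 (limma adjusted p = 0.122). Rpl10l stood at 120, 114, 99.0 and 89.6 CPM on both sides of WT and differed by -0.03 ± 0.08. Rpl22l1 stood at 22.4, 19.2, 13.9 and 13.9 CPM, with the same pair of libraries lowest, and changed by -0.31 ± 0.16 (limma adjusted p = 0.175). Without KO replicate 5, Rpl39l (-0.33, limma adjusted p = 0.0329) and Rpl22l1 (-0.46, limma adjusted p = 0.0267) passed as lower. Rps4l stayed between 59.8 and 69.8 CPM in KO, and its difference was within 0.01 of 0 (limma adjusted p = 0.983).

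Markers of germ cells and of their support cells moved between the same testes libraries. Of all genes tested in testes, 9.74% were called higher and 10.7% lower in KO. Of 7 elongating spermatid genes 4 were called lower in KO, and their summed level ran from 8494 to 10813 CPM against 11614 to 12177 CPM in WT. Of 7 round spermatid genes 3 were lower, and none of the 7 spermatocyte genes was called. Of 7 Sertoli cell genes 6 were higher, with a summed 1170 to 1701 CPM in KO against 915 to 1083 CPM in WT. The same sum averaged 1223 CPM in WT liver and 993 CPM in WT testes, so it is not particular to Sertoli cells. Of 5 spermatogonia genes 1 was higher and 0 lower, at a median of 0.25 (log2). Of 5 Leydig cell genes 1 was higher and 0 lower, at a median of -0.17. The part of these cell types in the levels of the testes paralogs was not tested.

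Ratios of paralog to parent were compared between KO and WT by an exact permutation test over libraries, two-sided, in the 14 pairs and tissues with a mean of at least 10 counts for both genes. The smallest p that 4 against 4 libraries allow is 0.0286. Only Rpl39l to Rpl39 in testes reached it, with log2 ratios of 3.72, 4.08, 4.28 and 4.11 in WT and 3.60, 3.59, 3.31 and 3.66 in KO, which did not overlap. The mean difference was -0.51 (exact permutation p = 0.0286). One such value among 14 tests does not pass a correction for their number. Its share of the pair was 89.8% ± 1.03 in KO testes.

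Of the 6 testes pairs, 4 had a lower mean ratio in KO and 2 a higher one. The difference on the log2 scale was -0.31 for Rpl10l, -0.51 for Rpl39l, -0.45 for Rpl22l1 and -0.28 for Rps4l, with exact permutation p of 0.114, 0.0286, 0.0571 and 0.0571. It was 0.05 for Rps27l and 0.17 for Rpl7l1, with exact permutation p of 0.343 and 0.171. In cerebellum the Rps4l to Rps4x ratio differed by 0.64 (exact permutation p = 0.0571), with an overlap of the groups that rested on KO replicate 6. In liver the 4 differences lay between 0.06 and 0.41, with exact permutation p of 0.143 to 0.914.

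The KO effect was compared between tissues in one limma-voom fit over the 24 libraries and 11112 genes, those kept by the filter in each tissue, with 4 paralogs among them. The KO effect differed between testes and liver for 15.9% of these genes, between testes and cerebellum for 14.5% and between cerebellum and liver for 7.67%. For 3 of the 4 paralogs the KO effect in testes lay below that in liver. The difference was -0.87 ± 0.25 for Rpl22l1 (log2, SE, limma adjusted p = 0.0209), -0.50 ± 0.15 for Rps4l (limma adjusted p = 0.0263) and -0.43 ± 0.13 for Rps27l (limma adjusted p = 0.0295). The call of Rps4l was lost on leaving out liver WT replicates 1 or 4 or liver KO replicates 7 or 8. The call of Rps27l was lost without liver WT replicate 2, liver KO replicates 5 or 6, testes WT replicate 4 or testes KO replicates 7 or 8, and with edgeR (adjusted p = 0.0508).

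Between testes and cerebellum the KO effect differed for Rps4l alone of the 4, by -0.82 ± 0.21 (limma adjusted p = 0.0114). With quantile scaling the difference was -0.71 (limma adjusted p = 0.0680). Between cerebellum and liver 0 of the 4 passed with limma or edgeR, and at an unadjusted limma p under 0.05 Rps27l (-0.50 ± 0.23) and Rpl22l1 (-0.61 ± 0.28) did. These 3 contrasts share libraries with each other and with the comparisons within tissues.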

How the data were processed

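The authors aligned reads of stranded, ribosome-depleted total RNA libraries to mm10 with STAR and quantified them with RSEM against GENCODE M21. The deposited values are expected counts per gene, not normalised, and need not be whole numbers. They were rounded for edgeR 4.0.16 and DESeq2 1.42.0 only. All 24 columns were matched to samples by library name, and 0 were left unmatched.

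KO and WT were compared in each tissue with limma 3.58.1 (voom, quantile normalisation), as in the study's methods. Tissues, and KO effects between tissues, were compared with TMM scaling. CPM were scaled to total counts, without TMM. Ratios used counts plus 0.5. P-values measure the spread between libraries, 1 per tissue sample. Libraries of the same number hardly correlated between tissues (correlations of deviations -0.039 to 0.0734 over 24 pairs). This cannot tell whether they came from the same mouse, and the main fits treated all libraries as separate.

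Named genes were the 7 paralogs and their parents, their pseudogene rows, and for each paralog at 1 CPM in at least 4 libraries the 3 genes most like it; ribosomal protein, p53 and marker lists are given as counts. Members and lists were chosen with earlier results of these data known, and the midbrain list after seeing the data. Fits of KO against WT, of testes against liver and of the KO effect in testes minus liver were run on simulated data. The other contrasts of tissues and of KO effects were not. In the simulated testes and liver far fewer genes differed than in the real ones, and the outcome is not given here. Alternatives were other normalisations, tools, filters and each library left out. Windows of 50 bases were searched in GENCODE M21 transcripts, and coding sequences were translated and aligned with a script. R 4.3.3, Python 3.11.15 and scipy 1.17.1 were used.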

Additional observations from a re-analysis of the deposited data

Results flagged for a closer look

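In groups of 4 libraries, 6 of 72 groups of values held a library far from the other 3 by Dixon's test, which chance alone flags in about 1 of 20. Among the groups tested, all 6 were values of parents and none of a paralog. The 72 do not hold every gene in every group, so paralogs with almost no counts, such as Rpl3l in KO cerebellum, are not covered. The libraries were Rpl10 in WT testes replicate 2 (34.2 CPM), Rpl39 in KO cerebellum replicate 7 (16.6 CPM), Rpl3 in WT testes replicate 2 (115.7 CPM), Rpl22 in KO testes replicate 8 (16.3 CPM), and Rps4x and Rpl7 in WT cerebellum replicate 3 (55.1 and 69.2 CPM).

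The difference of the KO effect between testes and liver passed the limma threshold for Rps27l (-0.43, log2), Rpl22l1 (-0.87) and Rps4l (-0.50), and that between testes and cerebellum for Rps4l (-0.82).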

How the results depend on the processing

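Of the fitted values for single paralogs under the alternatives, 682 kept direction and side of the threshold, 25 lost a call, 4 gained one and 27 turned sign. All 28 ratios with another pseudocount or scaling kept both. Without 1 library, the two-sided permutation test used here cannot reach 0.05, so only signs were compared. Of 112 such ratios 5 turned sign, those of Rps27l (-0.10 to 0.28) and Rpl7l1 (-0.058 to 0.21) in liver. In liver the genes called numbered 1408 with DESeq2, 492 without a filter, 1705 with sample weights and 1584 in one fit over 24 libraries against 757, with 2, 0, 2 and 0 paralogs against 1, and without 1 library 284 to 795 genes and 0 to 1 paralogs. In cerebellum the genes called numbered 628 without a filter, 1757 with sample weights and 195 in one fit over 24 libraries (0 paralogs) against 1045, and without 1 library 417 to 2317 genes and 0 to 1 paralogs. In testes they numbered 6107 with sample weights against 3957, and without 1 library 1711 to 4913 genes and 0 to 2 paralogs. Testes and cerebellum differed in the KO effect at 982 genes and 0 paralogs with quantile scaling, and cerebellum and liver at 548 to 1230 genes without 1 library. Signs turned for Rpl7l1 in KO liver (-0.016 with TMM, -0.042 with sample weights, -0.066 in one fit over 24 libraries, and -0.052 to 0.078 without 1 library), and with sample weights for Rps27l (0.072) and Rpl10l (0.074) in KO testes. Without 1 library, KO testes gave -0.16 to 0.027 for Rps27l, -0.097 to 0.042 for Rpl10l and -0.053 to 0.041 for Rps4l. Rpl7l1 between testes and cerebellum gave -0.086 with quantile scaling and -0.098 to 0.41 without 1 library. Its KO effect in testes minus liver gave -0.036 to 0.086 and that of Rps27l in testes minus cerebellum -0.038 to 0.16. The cause was not tested.

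With a replicate block across tissues, 2200 genes differed in the KO effect between testes and liver against 1763, 1234 against 1616 between testes and cerebellum, and 1235 against 852 between cerebellum and liver, and it changed no paralog's call. Libraries did not correlate above 0.1 by number, which cannot tell whether the tissues came from the same mice. Rpl3l cannot be compared at this depth, and the floor of 3 counts per library covers counting error only.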
